A study of Homo sapiens with 12 samples.

Results

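The connexin genes GJD3, GJA1, GJA3, GJB1, GJB2 and GJC1 were followed through mRNA libraries of 2 human prostate cancer cell lines. The 6 genes were taken by their symbols from the 60660 genes of the count tables, and all 6 were found. LNCaP came from a metastasis in a lymph node, and 22Rv1 came from a xenograft that grew back once its host had been castrated. The paper describes both lines as sensitive to the loss of androgen. Each line was transfected with NC-mimic, a negative control RNA oligo, or with piR-4447944 mimic, a synthetic copy of a PIWI-interacting RNA (piRNA), and all 4 groups were kept in androgen-deprived medium with 10% charcoal-stripped serum. Each group had 3 libraries, 12 in all, with 12161091 to 22179601 expected counts per library (reads as RSEM assigns them to genes). The labels number the libraries of a group but do not state separate cultures, so p-values measure the spread between libraries, which may be technical. GJD3 was one of the genes that the study picked from these libraries for follow-up, out of those it found lower with the mimic in both lines. Its values under that contrast are therefore a description, and no p-value is given for them. In that follow-up, by quantitative PCR, the paper reports NEFH as the only picked gene lowered in both lines.

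Connexins are membrane proteins that assemble into hemichannels, which dock with those of a neighbouring cell to form gap junctions and let ions and small metabolites pass. Epithelial cells, the prostate gland included, use gap junctions together with adherens and tight junctions. GJA1 encodes the most widely expressed connexin, GJB1 the main connexin of hepatocytes and of myelinating Schwann cells, GJB2 a connexin of the inner ear and skin, GJA3 a connexin of the lens, GJC1 a connexin of the heart and vessel wall, and GJD3 a small connexin of the delta group.

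GJD3 shares its place in the genome with an antisense gene, and this bears on every value of GJD3. In GENCODE v44 (hg38), GJD3 is a single exon of 4086 bases at chr17:40360652-40364737 on the minus strand, and its coding part of 882 bases lies at chr17:40362934-40363815. The lncRNA gene GJD3-AS1, listed as AC080112.1 in the count tables, lies on the plus strand with 2 exons, at chr17:40360655-40361137 and chr17:40363083-40364693. All 2094 bases of its exons fall inside the GJD3 exon and cover 51.2% of it. The lengths of both genes in the count tables, 4086 and 2094 bases, were those of this annotation. RefSeq (GRCh38.p14) draws GJD3-AS1 differently, from 40362845 to 40365435 on chromosome 17. None of the other 5 connexins shared an exonic base with another gene of GENCODE v44.

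**Figure D1:**
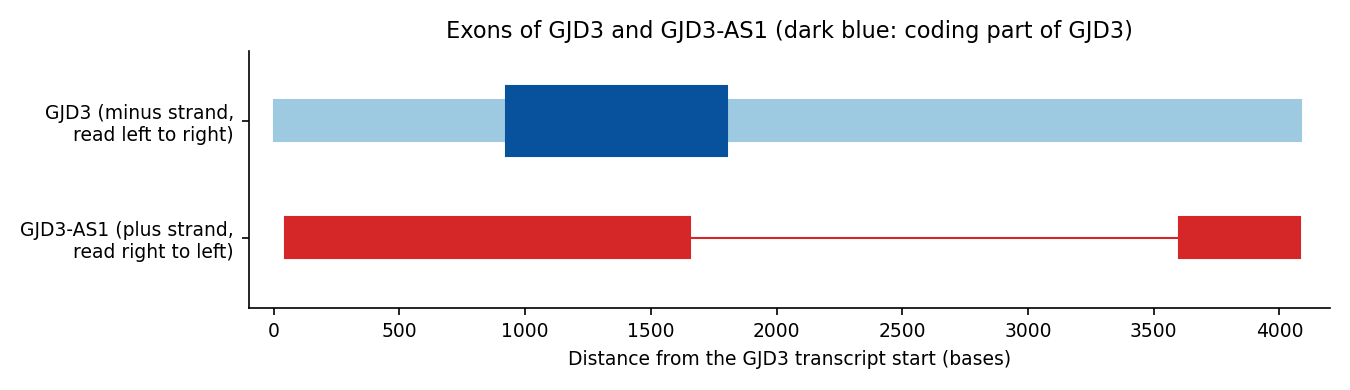
Exons of GJD3 and GJD3-AS1 in GENCODE v44 against the distance from the GJD3 transcript start in bases (boxes: exons, dark blue: coding part, line: the 1945-base intron of GJD3-AS1). Both antisense exons lie inside the single GJD3 exon, and the longer one covers the start of the coding part.

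The shared stretch can be read from the first 30 coding bases of GJD3 (chr17:40363786-40363815), shown because these bases belong to both genes, once in each direction. The third sequence is the join of the GJD3-AS1 exons, which the GJD3 transcript did not hold in either direction. Capitals mark the start codon, its complement, and the bases after the join. The sequences were read from the GENCODE v44 transcripts.
GJD3, minus strand: ATGggggagtgggcgttcctgggctcgctg
GJD3-AS1, plus strand, same bases: cagcgagcccaggaacgcccactccccCAT
GJD3-AS1, plus strand, exon join: aagtgacaacaatagGTGGCGGCGGCGGCG

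The count tables divided the reads of this place between the genes. The expected count of GJD3 was not whole in 11 of 12 libraries, whereas those of GJA1, GJA3, GJB1, GJB2 and GJC1 were whole in all 12. The sum of GJD3 and AC080112.1 was whole, within 0.02, in 12 of 12 libraries: in LNCaP NC-mimic replicate 1, for example, 89.93 and 182.07 added up to 272. Reads were thus shared between genes on opposite strands, and GJD3 and GJD3-AS1 reads over the common bases were not told apart by strand. Only 1992 bases of GJD3 lie outside the antisense exons, most of them (1945) within the antisense intron.

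Connexin levels are compared below as TPM (a level scaled by transcript length to one common sum per library, which holds no depth). In LNCaP NC-mimic, GJC1 led with 3.21 ± 0.284 TPM (SD, n = 3), followed by GJB1 with 2.6 ± 0.441 and GJD3 with 1.57 ± 0.0872. GJB2 had 0.703 ± 0.384 TPM, GJA1 0.0767 ± 0.0569 and GJA3 0.0700 ± 0.0100. The ranges of GJC1 and GJB1 met, as did those of GJA1 and GJA3, whereas GJD3 and GJB2 each stood clear of their neighbours. LNCaP with the mimic had the same order, again with GJC1 and GJB1, and GJA1 and GJA3, overlapping.

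In 22Rv1 the order was another, with GJA1 on top. GJA1 made 64.2% of the summed TPM of the 21 connexin genes on the list in 22Rv1 NC-mimic and 67.6% with the mimic, against 0.811% and 2.66% in LNCaP. The summed connexin TPM was 46.9 to 56.0 in the 22Rv1 NC-mimic libraries and 31.6 to 55.1 with the mimic, against 8.79 to 11.7 over the 6 LNCaP libraries. In 22Rv1 NC-mimic, GJB1 with 8.51 ± 2.49 TPM and GJC1 with 4.89 ± 0.662 came next and did not overlap. Below them GJB2 (0.20 to 1.74 TPM) overlapped both GJD3 (1.32 to 1.46) and GJA3 (0.08 to 0.97). GJD3 and GJA3 did not overlap each other. With the mimic, GJB1 and GJC1 overlapped, as did GJA3, GJD3 and GJB2.

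**Figure D2:**
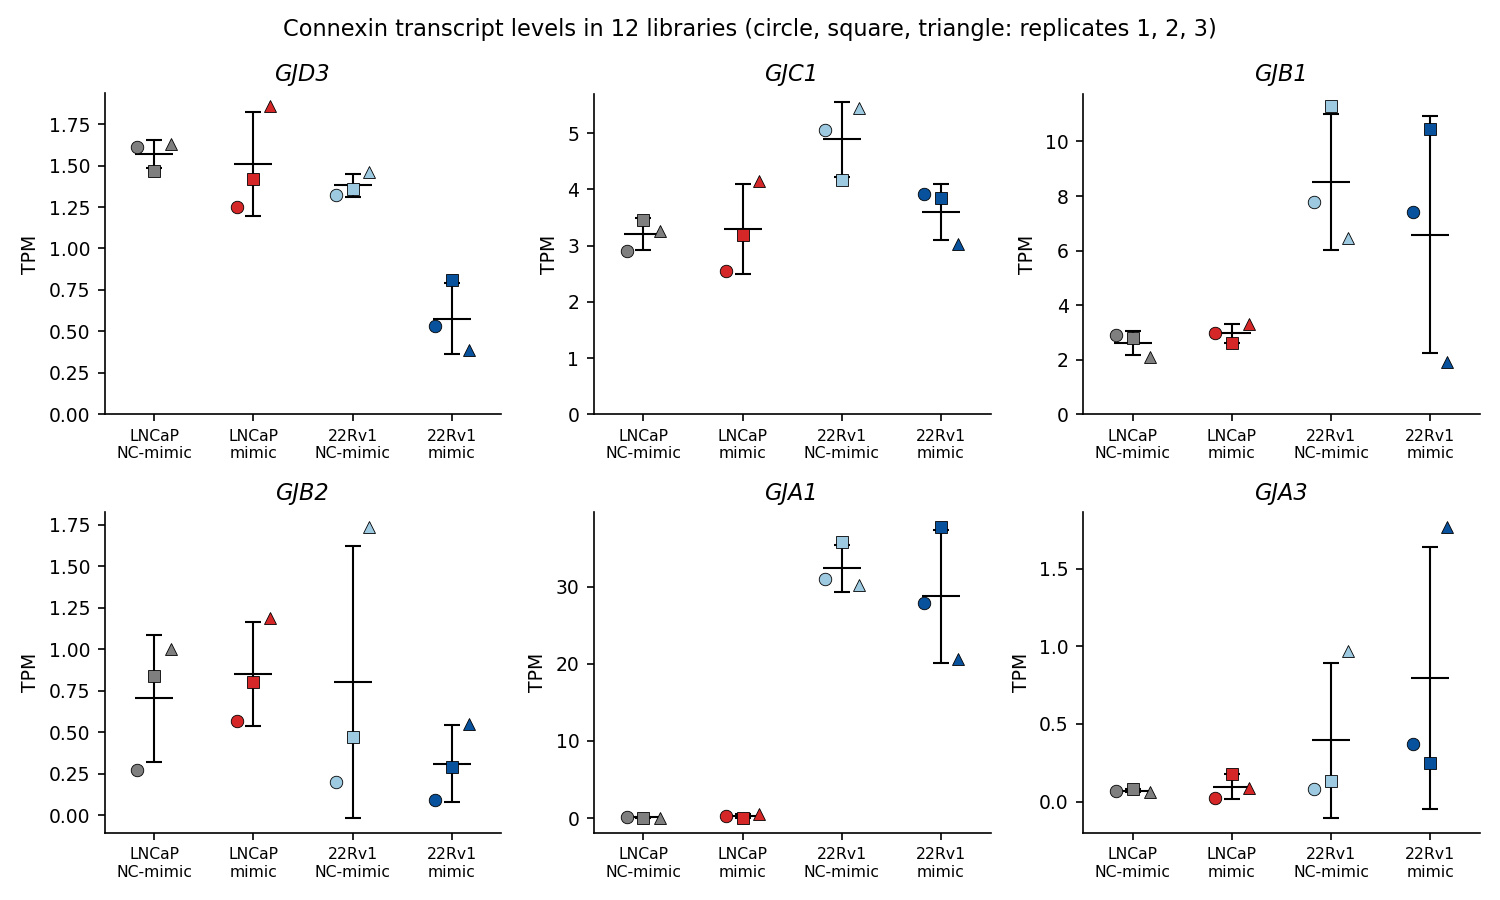
TPM of the 6 connexins by group (points: libraries, bar and whiskers: mean ± SD, n = 3; each panel has its own scale). GJA1 lies between 20.6 and 37.8 TPM in 22Rv1 and at 0.56 or less in LNCaP, and GJD3 is low in the 3 libraries of 22Rv1 with the mimic.

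The first comparison asked whether the lines differ in their connexins without the mimic. GJA1 was near absent from LNCaP and abundant in 22Rv1. Its expected counts were 4, 1 and 2 in LNCaP NC-mimic and 1498, 1261 and 850 in 22Rv1 NC-mimic, with no overlap. The pooled counts, 7 against 3609, gave a ratio of 561 (exact 95% interval 272 to 1400, counting error only). The log2 fold change was 9.08 (SE 0.264, adjusted p = 2.80e-07, quasi-likelihood test of edgeR, adjusted by Benjamini-Hochberg over all genes tested). GJA1 lies at chr6:121435595-121449727 on the plus strand (GENCODE v44, hg38).

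GJB1 (chrX:71212811-71225516, plus strand) was higher in 22Rv1 too. Its TPM was 2.92, 2.79 and 2.10 in LNCaP NC-mimic and 7.77, 11.29 and 6.47 in 22Rv1 NC-mimic. Every 22Rv1 library was above every LNCaP library, at a log2 fold change of 1.72 (SE 0.309, adjusted p = 0.00173 by edgeR's quasi-likelihood test). GJA1 and GJB1 were the 2 of 5 connexins tested that passed an adjusted p of 0.05, where 58.4% of all 17497 genes tested passed, a share above that of the connexins.

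No difference beyond the spread was detected for GJD3, GJC1 and GJB2. GJD3 had log2 fold change -0.14 (SE 0.255), GJC1 0.27 (SE 0.193) and GJB2 0.21 (SE 0.829), none of which passed. The 95% interval of the difference ran from -0.635 to 0.365 for GJD3 and from -1.41 to 1.84 for GJB2, whose counts were only 7 to 35 in these 6 libraries. GJA3 (chr13:20138255-20161052, minus strand) stayed below the low-count filter, with counts of 5, 6 and 4 in LNCaP and 7, 8 and 48 in 22Rv1, most of them in 1 library. The pooled counts, 15 against 63, gave a ratio of 4.57 (exact 95% interval 2.57 to 8.64, counting error only), and GJA3 passed without the filter and by DESeq2.

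Among the libraries with the mimic, GJA1 again separated the lines. Its counts were 7, 0 and 21 in LNCaP and 889, 1456 and 684 in 22Rv1, a pooled ratio of 107 (exact 95% interval 73.9 to 161, counting error only). The log2 fold change was 6.75 (SE 0.716, adjusted p = 0.000379, edgeR's quasi-likelihood test). GJA3 was higher at 3.02 (SE 1.00, adjusted p = 0.0400) and GJD3 lower at -1.38 (SE 0.386), the latter in the libraries on which the study picked it. GJB1 (1.07, SE 0.573), GJB2 (-1.45, SE 0.659) and GJC1 (0.32, SE 0.236) did not pass, so 3 of 6 connexins passed where 52.4% of 17283 genes did.

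Single libraries decided most of these calls. Without 22Rv1 mimic replicate 3, 5 connexins passed (GJB1 at 1.51, GJB2 at -2.11 and GJC1 at 0.50 were added, and GJA3 dropped out). Without LNCaP mimic replicate 2, or without its replicate 3, GJA1 alone passed. The call of GJA3 was lost without any 1 of the 3 LNCaP mimic libraries, and that of GJD3 also without 22Rv1 mimic replicate 1. GJA1 passed in each of these fits.

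Replicate 3 of 22Rv1 stood apart in both groups. The chi-square per gene against the other libraries of its group was 37.71 to 106.30, against 3.43 to 15.04 for all other pairs. In 22Rv1 mimic replicate 3 the 13 mitochondrial protein genes took 1.60% of counts, against 3.38 to 4.79% in the 11 other libraries. Some connexins, named after their values were seen, stood apart with replicate 3, and which ones did so differed between the groups. GJB1 had 1.90 TPM there against 7.42 and 10.45 in the other libraries of its group, and GJA3 1.77 against 0.37 and 0.25. In 22Rv1 NC-mimic replicate 3, GJA3 had 0.97 TPM against 0.08 and 0.13, and GJB2 1.74 against 0.20 and 0.47. In that same library GJA1 had 30.31 TPM against 31.04 and 35.87, GJD3 1.46 against 1.32 and 1.36, and GJC1 5.45 against 5.06 and 4.16. In 22Rv1 mimic replicate 3, however, these same genes were each the lowest of their group. There GJA1 had 20.64 TPM against 27.91 and 37.84, GJD3 0.39 against 0.53 and 0.81, and GJC1 3.03 against 3.92 and 3.85. GJB2 was the highest of its group there, at 0.55 against 0.09 and 0.29. The part of RNA quality in these values was not tested.

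The main comparison asked what piR-4447944 mimic did within each line. In LNCaP, 4 of 6 connexins passed the low-count filter. None was called under the study's cut-offs (unadjusted p below 0.05, log2 fold change beyond 0.2 in either direction), whether by edgeR, DESeq2 or limma. DESeq2, with shrunken fold changes, called only 2 genes in all by these cut-offs, so its lack of a connexin says little. GJA1 alone was called in edgeR when the filter was dropped or all 12 libraries were fitted together. Of all 16244 genes tested 2.22% were called (0.843% lower), and 0% had an adjusted p under 0.05, with 433 at an unadjusted p under 0.05; by adjusted p DESeq2 gave 2 genes, limma 1, and edgeR 46 without the low-count filter.

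GJD3, picked by the study from genes it found lower in both lines with DESeq2, did not differ beyond its spread in LNCaP. Its TPM was 1.61, 1.47 and 1.63 with NC-mimic and 1.25, 1.42 and 1.86 with the mimic, which overlapped, at a log2 fold change of -0.05 (SE 0.219). GJB1 had 0.23 (SE 0.256), GJC1 -0.03 (SE 0.134) and GJB2 0.29 (SE 0.487). The 95% interval was narrowest for GJC1, -0.29 to 0.236, and reached from -0.664 to 1.24 for GJB2. The groups of these 4 connexins overlapped in CPM (counts scaled to the library size), while those of 7.95% of all genes tested did not.

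GJA1 and GJA3 were too low in LNCaP for the filter. GJA1 counts were 7 in total with NC-mimic and 28 with the mimic (ratio 4.52, exact 95% interval 1.93 to 12.3, counting error only), and 21 of the 28 lay in replicate 3 while replicate 2 had 0. GJA3 counts were 15 and 18 in total (ratio 1.36, interval 0.646 to 2.89).

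In 22Rv1 all 6 connexins were tested and GJD3 was the 1 called, as lower; limma on log2(TPM + 1) did not call it, at -0.60. Its TPM was 1.32, 1.36 and 1.46 with NC-mimic and 0.53, 0.81 and 0.39 with the mimic. The groups did not overlap, and the log2 fold change was -1.32 (SE 0.416), or 0.40-fold. By the rule of the study 1.48% of all 16898 genes tested were called (0.681% lower), and 8.71% had groups that did not overlap in CPM; nothing is read from GJD3 against these shares, since it was picked on this contrast. By adjusted p, 0% of genes passed with edgeR (250 at an unadjusted p under 0.05), 4 genes with DESeq2 and 2 with limma. Blocking on the replicate number raised the genes called by the rule of the study to 420, with GJD3 still the 1 connexin, and its log2 fold change was -1.37. Without replicate 3 of both groups it was -1.03.

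The antisense gene was higher where GJD3 was lower. GJD3 had 4.17 ± 0.277 CPM with NC-mimic and 1.66 ± 0.639 with the mimic (SD, n = 3). AC080112.1 had 166.69, 132.99 and 105.54 expected counts with NC-mimic and 149, 210.93 and 179.7 with the mimic, or 8.23 ± 0.590 against 11 ± 0.730 CPM (SD, n = 3). The CPM of the groups did not overlap, at a log2 fold change of 0.43 (SE 0.214), which the rule of the study did not call. GJD3 received 34.1%, 32.8% and 34.4% of the reads of both genes with NC-mimic and 13.4%, 16.6% and 8.78% with the mimic. In LNCaP this share was 27.0 to 34.2% and 22.8 to 31.8%.

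Summed over both genes, the 22Rv1 groups no longer differed beyond their spread. The sum was 11.4, 12.8 and 13 CPM with NC-mimic and 11.8, 14 and 12.2 CPM with the mimic, which overlapped. Its log2 fold change was 0.04 (SE 0.196, 95% interval -0.341 to 0.427) in 22Rv1 and 0.12 (SE 0.185) in LNCaP. The same sum had -0.31 (SE 0.228) in 22Rv1 against LNCaP with the mimic, where GJD3 alone had -1.38. Summing was chosen after the values were seen. Whether GJD3 fell while GJD3-AS1 rose, or the division of the reads changed, cannot be told apart in these counts.

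The other 5 connexins were not called in 22Rv1. GJA1 had 31.04, 35.87 and 30.31 TPM with NC-mimic and 27.91, 37.84 and 20.64 with the mimic, at a log2 fold change of -0.23 (SE 0.227). GJB1 had -0.44 (SE 0.576), and without 22Rv1 mimic replicate 3 this was 0.00. GJC1 had 0.00 (SE 0.275, 95% interval -0.537 to 0.541).

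GJB2 and GJA3 varied widely between the 22Rv1 libraries. GJB2 counts were 7, 12 and 35 with NC-mimic and 2, 8 and 13 with the mimic, lower within each replicate number, at -1.44 (SE 0.985). GJA3 counts were 7, 8 and 48 with NC-mimic and 21, 17 and 103 with the mimic, higher within each number, at 0.94 (SE 1.11). Without NC-mimic replicate 3 GJA3 reached 2.83 and was called by the rule of the study, and without mimic replicate 3 it was -0.37. For both genes the groups overlapped, and the 95% intervals ran from -3.37 to 0.494 for GJB2 and from -1.23 to 3.12 for GJA3.

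The effect of the mimic on the connexins was not found to differ between the lines at an adjusted p of 0.05. In the interaction test 0% of 18720 genes passed an adjusted p of 0.05 by edgeR (610 had an unadjusted p under 0.05), 3 genes passed by DESeq2 and 2 by limma, and no connexin was among them. By the looser rule of the study, without adjustment, GJD3 and GJA1 were called, both lower, where 3.26% of all genes were called (1.54% lower); GJD3 had been picked on these libraries. The difference between the lines was -1.26 (SE 0.432) for GJD3 on the log2 scale and -0.06 (SE 0.299) for GJD3 and its antisense gene summed. For GJA1 it was -2.35 (SE 1.01), resting on 0 to 21 counts per LNCaP library.

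**Figure D3:**
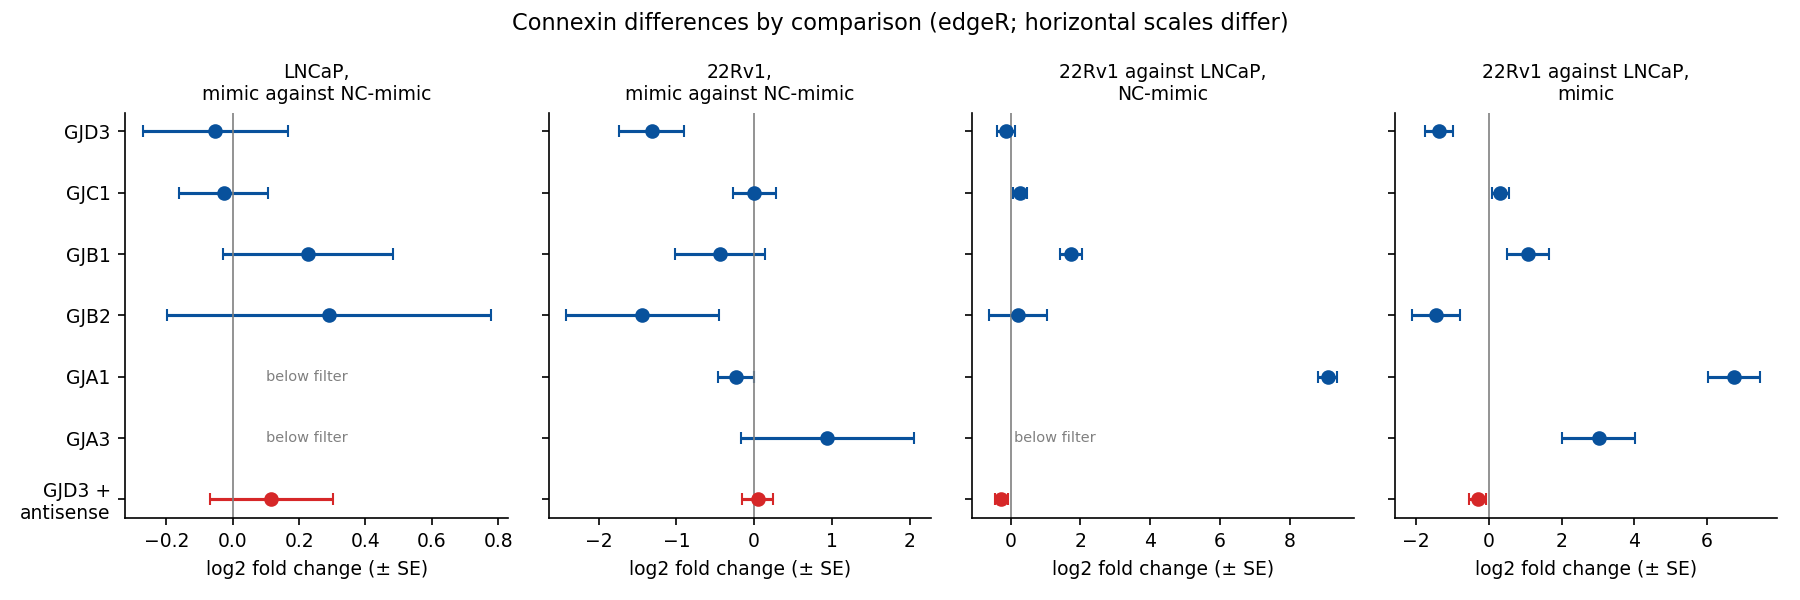
Log2 fold change ± SE (edgeR) of the 6 connexins (blue) and of GJD3 summed with its antisense gene (red) in each comparison; horizontal scales differ between panels. GJA1 is at 9.08 and 6.75 between the lines, and the red point of the sum stays near 0 in 22Rv1 where GJD3 alone is at -1.32.

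The piRNA was also looked for in the transcripts. ATAGCTT, the complement of bases 2 to 8 of piR-4447944, was searched on the transcript strand of every GENCODE v44 transcript of the members. It was found in GJB2 alone, in 2 of 2 transcripts and in the 3′ UTR, and in the transcripts of 16.1% of all 19702 protein-coding genes. The place, chr13:20187537-20187566 on the minus strand, is shown with the match in capitals, because GJB2 was the 1 member that held it. A match is a description of letters and not a binding site.
GJB2 3′ UTR: aataataaagaATAGCTTtaatgatatgct

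The pannexins, a family of large-pore channels that form no typical gap junctions, were measured beside them. PANX1 was lower in 22Rv1 than in LNCaP, with 8.72 ± 1.57 against 16.4 ± 0.535 TPM with NC-mimic (log2 fold change -0.85, SE 0.155, adjusted p = 0.00184, edgeR's quasi-likelihood test). PANX2 had 6.67 ± 0.563 TPM in LNCaP and 9.92 ± 6.04 in 22Rv1 with NC-mimic, within the spread. PANX3 had 9 counts in total in LNCaP NC-mimic and 49 in 22Rv1 NC-mimic (2.48, SE 0.547, adjusted p = 0.00484, edgeR's quasi-likelihood test). Of the 24 connexin and pannexin genes, 10 were tested between the lines with NC-mimic, of which 3 were higher and 1 lower in 22Rv1, where 58.4% of all genes passed, with a median log2 fold change of 0.579 against 0.0146 for all genes.

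Genes that anchor, phosphorylate or turn over connexins were called between the lines no more often than genes at large. Of 30 such partners, all tested, 6 were higher and 9 lower in 22Rv1 with NC-mimic, where 58.4% of all genes passed, with a median of -0.116. CDH2, the N-cadherin of adherens junctions, had 0 counts in all 6 LNCaP libraries and 485 in total in 22Rv1 NC-mimic, at least 176-fold higher (against 3 counts over the group). CAV1 and CAV2, the caveolins, were higher at 5.99 (SE 0.719) and 3.39 (SE 0.748). TJP1, the tight junction scaffold that binds the GJA1 protein, was lower at -1.95 (SE 0.187), as were the ubiquitin ligase WWP1 at -2.04 (SE 0.253) and the actin-binding DBN1 at -1.13 (SE 0.137). With the mimic in both lines 6 partners were higher and 6 lower, where 52.4% of all genes passed, with CDH1, the E-cadherin, at -0.91 (SE 0.143) among the lower ones.

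Between mimic and NC-mimic the partners gave 1 call in all. In LNCaP 0 of 27 partners tested were called by the rule of the study (edgeR), against 2.22% of all genes. In 22Rv1 SMURF2, a ubiquitin ligase that acts on GJA1, was the 1 of 30, higher at 0.36 (SE 0.137), against 1.48% of all genes. The medians over the partners were -0.00665 in LNCaP and 0.00837 in 22Rv1, against -0.00272 and -0.00515 for all genes.

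Both lines held the luminal prostate markers KLK3, KLK2, HOXB13 and TMPRSS2, 4 of 4, at a summed 2560 to 3120 CPM in LNCaP and 394 to 563 in 22Rv1. Basal markers summed to 0.794 CPM at most and leukocyte markers to 3.05. The fibroblast sum was 58.0 to 82.0 CPM in LNCaP and 11.8 to 47.8 in 22Rv1, with COL1A2 at 0 in LNCaP. The endothelial sum was 3.83 to 6.41 CPM in LNCaP and 0 to 0.499 in 22Rv1, with CDH5 at 0 in both lines and VWF lower in 22Rv1 at -6.17 (SE 0.590) with NC-mimic. The part of these markers in the differences between the lines was not tested. Since the libraries are bulk RNA, fewer cells with a transcript and less of it per cell cannot be told apart.

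By likeness to GJD3 over the 12 libraries, on log2 CPM centred on each line, the nearest of 18720 genes were SLC35F2, EEF1AKMT4, XKR9, STT3A and MROCKI, with Pearson's r of 0.966, 0.956, 0.952, 0.948 and 0.946. Without centring they were STT3A, AL133325.3 and U2AF1, with r of 0.952, 0.945 and 0.943. AC080112.1 had r of -0.323 centred and -0.118 not centred. These libraries share 2 lines and the GJD3 contrast itself, so the values describe likeness only.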

How the data were processed

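Poly(A) selection, strand and read length of the mRNA libraries were not given in the sources used here. The authors aligned reads to hg38 with STAR 2.7.1a, quantified genes with RSEM 1.3.0 and tested them with DESeq2 1.34.0 in R 4.1.1. The expected counts deposited per library are not normalized and split reads that match more than one gene. The TPM deposited by the authors are scaled by effective length and hold no depth.

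Expected counts were rounded and fitted with edgeR 4.0.16 (R 4.3.3): TMM, filterByExpr, glmQLFit and glmQLFTest, 1 fit per comparison, Benjamini-Hochberg over all genes tested. CPM are TMM-scaled over 12 libraries. The mimic comparisons used the study's cut-offs (unadjusted p below 0.05, log2 fold change beyond 0.2 either way), the others by an adjusted p under 0.05. Alternatives were DESeq2 1.42.0, limma 3.58.1 on log2(TPM + 1), other scaling, no filter, a replicate block, all 12 libraries and leaving out libraries. The scripts were tested on simulated data. Exact intervals cover counting error only. The depth, 12161091 to 22179601 counts, limits GJA1 and GJA3 in LNCaP.

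Same-numbered 22Rv1 libraries deviated together between mimic and NC-mimic (correlations 0.198, 0.167 and 0.355). However, NC-mimic replicate 1 with mimic replicate 2 had 0.191, and NC-mimic replicate 2 with mimic replicate 1 had 0.117. The values thus set replicate 3 apart in both groups and do not show that replicates 1 and 2 pair by number. In LNCaP replicates 1 and 2 did not deviate together by number (0.0211 and 0.00504), while replicate 3 did so weakly (0.189). NC-mimic replicate 2 with mimic replicate 1 of LNCaP, unlike in number, had 0.139.

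The members, the gene lists and the study's pick of GJD3 were chosen with earlier results of these data known. Named were the members, family genes with a mean TPM of at least 1 in any group, up to 6 called partners per comparison, and the 5 and 3 genes most like GJD3. Some genes of the fixed lists are not reported here by name.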

Additional observations from a re-analysis of the deposited data

How the results depend on the processing

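The values below are counts of connexins called, or log2 fold changes. In LNCaP with the mimic 0 were called, 1 (GJA1) without the low-count filter or with all 12 libraries in one fit, and 0 with any 1 library left out. In 22Rv1 with the mimic 1 was called, 0 with limma on log2(TPM + 1), and 1 to 2 with 1 library left out. Between the lines with the mimic 3 were called, 1 with the replicate block (where the numbers do not pair the samples), 1 to 5 with 1 library left out, and 5 without 22Rv1 replicate 3. Between the lines with NC-mimic 2 were called, and 3 without the filter or by DESeq2, which added GJA3. The interaction called 0 under every alternative run. Genes called in LNCaP were 361, against 891 without the filter, 2 by DESeq2, 578 by limma, 168 with all 12 libraries and 1008 without NC-mimic replicate 3. In 22Rv1 they were 250, against 532 without the filter, 459 by limma, 420 with the block, 1232 with all 12 libraries, 376 without mimic replicate 3 and 781 without replicate 3 of both groups.

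The sum of GJD3 and its antisense gene had 0.12 with the mimic in LNCaP and 0.0429 in 22Rv1, opposite in sign to GJD3 alone. It is not a value of GJD3, which received only 8.78 to 34.4% of the summed counts per library. GJC1 changed sign around 0 in 22Rv1, to -0.00215 without the filter, -0.000208 by DESeq2, -0.0102 with the replicate block and -0.36 by limma on TPM, and by limma it was 0.0151 in LNCaP and -0.37 in the interaction. GJB2 between the lines with NC-mimic was -0.0437 with the block and -1.03 without 22Rv1 replicate 3. With 1 library left out, these ranges crossed 0: GJD3 in LNCaP -0.24 to 0.0623, GJC1 in LNCaP -0.13 to 0.0541, GJB2 in LNCaP -0.11 to 0.64, GJC1 in 22Rv1 -0.22 to 0.19, GJA3 in 22Rv1 -0.37 to 2.83, GJB1 in 22Rv1 -0.93 to 0.0039, GJB2 between the lines -1.03 to 0.71, and in the interaction GJC1 -0.17 to 0.22 and GJA3 -0.80 to 2.42. The cause was not tested. GJD3 in 22Rv1 stayed between -1.65 and -1.09 with 1 library left out, and GJA1 between the lines with NC-mimic between 8.68 and 9.63.

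With a library left out, a group of 2 or 1 is taken to vary like the rest of its fit. GJA1 and GJA3 in LNCaP are limited by counts of a few reads, GJB2 and GJA3 in 22Rv1 by the spread between libraries, and GJD3 by the reads it shares. By blocking on the number no other call changed.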

Other observations

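GJC1 kept its counts in 22Rv1 while its TPM fell out of overlap. The counts were 350, 235 and 270 with NC-mimic and 329, 318 and 199 with the mimic, and the TPM 5.06, 4.16 and 5.45 against 3.92, 3.85 and 3.03. The effective length that the authors' quantification gave to GJC1 was 4021, 4501 and 4956 bases with NC-mimic and 7366, 6027 and 5594 bases with the mimic, without overlap, a difference of 0.494 on the log2 scale of the means. Of 15761 genes with at least 1 CPM in 3 or more libraries of 22Rv1, 7.73% had effective lengths that did not overlap between the groups. The same share in LNCaP was 26.8% of 15065 genes. These shares count shifts of any size: GJD3, a single exon, had 3806 to 3817 and 3820 to 3823 bases in LNCaP. With a difference beyond 0.3 on the log2 scale required as well, the share was 2.49% in 22Rv1, GJC1 among them, and 1.49% in LNCaP. In LNCaP the effective lengths of GJC1 were 5588 to 6273 and 5109 to 6518 bases, which overlapped. The effective length weighs the transcripts of a gene by their estimated shares, and limma on log2(TPM + 1) gave GJC1 -0.36 in 22Rv1 with an unadjusted p = 0.181. This comparison was chosen after the values were seen.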
